A study of Homo sapiens with 18 samples.

Results

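The genes described here are the molecular chaperones of the heat shock protein 70, 90 and 110 families, the small heat shock proteins, the DNAJ co-chaperones, the mitochondrial chaperonin HSPD1/HSPE1 and the cytosolic chaperonin CCT. They were chosen by gene symbol alone (symbols that start with DNAJA, DNAJB, DNAJC, HSPA or HSPB and a digit, with HSP90 or with CCT2 to CCT8, and the symbols HSPD1, HSPE1, HSPH1 and TCP1), and 85 of the 19289 symbols in the table met this rule. These 85 genes were read by 92 of 21111 probes, since 7 of them have 2 probes each. The samples are 3 TNBC cell lines, BT549 and Hs578T, which the study treats as mesenchymal-like, and SUM149PT, which it treats as basal-like, with 18 TempO-Seq libraries in all. In each line, 3 libraries came from cells given the SMARTpool siRNA against ASAP1 (siASAP1) and 3 from cells given the control siRNA pool (siCtrl), both at 50 nM and both collected after 72 h. By the study's methods siCtrl is itself a mixture of siRNAs against kinases, so control cultures were transfected too and are not untreated cells. The labels name no heat shock or other stress, and the culture conditions they give are shared by the 3 lines. Each line is an established human breast tumor line, and ASAP1 encodes a GTPase-activating protein for Arf GTPases.

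Chaperones bind proteins that are unfolded or newly made and help them to reach or keep their folded form. HSP70 proteins hold and release short hydrophobic stretches in a cycle driven by ATP, DNAJ proteins bring them their clients and start ATP hydrolysis, and HSP110 proteins exchange the nucleotide so that the client is released. HSP90 acts later on clients such as kinases and steroid receptors, small heat shock proteins keep damaged proteins from aggregating, and the CCT ring folds actin and tubulin. Many of the cytosolic members are targets of the transcription factor HSF1, those of the endoplasmic reticulum (ER) are raised in the unfolded protein response, and tumor cells are known for high levels of several of them.

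TempO-Seq counts a ligated pair of detector oligonucleotides per target, so each value stands for a short stretch of a transcript. Values are given as normalized read counts (reads of a probe divided by the library's size factor), and log2 FC was computed on log2(normalized count + 1), a scale that understates the change of genes with few reads. Levels of different genes are not compared, since probes differ in efficiency. Libraries held between 4.63 and 12.5 M reads, and chaperone probes made up from 1.31% to 2.59% of them. Among the markers of cell type, the epithelial ones summed to between 27682 and 55422 normalized reads in SUM149PT and to no more than 482 in BT549 and Hs578T, where mesenchymal markers summed to at least 57093. The summed level of blood and endothelial markers did not exceed 103 in any library. The targeted gene ASAP1 was lower after siASAP1 than after siCtrl in every library of BT549 (367, 729.7 and 783 against 1107, 966 and 944 normalized reads) and of Hs578T (782, 825 and 1261 against 1641, 1414 and 2697). In SUM149PT it was 282, 468 and 184 after siASAP1 and 1087, 189 and 1314 after siCtrl. The library labelled SUM149PT siCtrl replicate 2 thus held ASAP1 at the level of the siASAP1 libraries, against its label. The same library had the lowest correlation of log2 values with the other 2 of its group (r = 0.773, where the highest of the 18 was 0.961), so results in SUM149PT are also given without it. SUM149PT siASAP1 replicate 2 (r = 0.846) and BT549 siASAP1 replicate 1 (r = 0.876) came next, and the counts that depend on them are given without them too. Replicates 1 and 3 of the SUM149PT groups did not overlap for 7076 of 10078 probes, and for 4941 of these (69.8%) the libraries numbered 2 lay in the opposite order, members included (38 of 48). The same share was 61.8% for the BT549 libraries numbered 1 (29 of 42 members) and between 24.3% and 41.2% for the other numbers of the 3 lines. Whether the labels of these libraries are right was not tested, and each SUM149PT and BT549 fold change rests on them. Replicates are biological triplicates by the study's methods. As bulk libraries, they cannot tell a lower level in every cell from fewer cells with the transcript.

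Reads were found for the main members of every chaperone class. A mean of at least 10 normalized reads over the 18 libraries was reached by 63 of the 92 probes (62 genes). These were tested in the fits of all 18 libraries, and within a line the filter was applied to its 6 libraries. By class, 11 of 18 probes passed for HSP70 and HSP110, 3 of 4 for HSP90, 3 of 8 for the small heat shock proteins, 4 of 5 for DNAJA, 8 of 14 for DNAJB, 24 of 31 for DNAJC, both for HSPD1/HSPE1 and 8 of 10 for CCT. Of the 29 probes that did not pass, 8 had no read in any library. These 8 were both probes of HSPA12B, a distant relative of HSP70, 1 probe of DNAJC7 and the probes of HSP90AA2P, HSPB7, DNAJB7, DNAJB8 and CCT8L2. DNAJB1, a main heat-inducible partner of HSP70, was read at most 33 times in a library and the heat-inducible HSPA1A at most 24 times, while the near-identical HSPA1B was read between 48 and 235 times. Reads of such copies may be split between their probes. DNAJC7, a co-chaperone that binds both HSP70 and HSP90, had 0 reads with 1 probe in all 18 libraries and between 848 and 3932 with its other probe. HSPA9 was read at most 7 times with 1 probe and between 14 and 97 times with the other. Of the 7 genes with 2 probes, DNAJB14 alone had both probes tested over the 18 libraries. The second probe of HSPA6 also passed the filter in Hs578T, and that of DNAJC3 in SUM149PT. Values below are those of the probe with more reads unless the second probe is named. A count of 0 speaks of the probe, not of the gene.

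Chaperone levels varied widely among libraries of the same group, beyond what counting error gives. The counts below were made for the chaperone probes alone, so they do not show a spread particular to chaperones. Of the 63 probes, 26 lay more than 1 (log2) away from both other libraries of the group in the library labelled SUM149PT siCtrl replicate 2, 11 of them above and 15 below. The same held for 20 probes in SUM149PT siASAP1 replicate 2, 17 in BT549 siASAP1 replicate 1 and 15 in Hs578T siCtrl replicate 3, and for 0 to 7 in each of the other 14 libraries. CCT6A, a CCT subunit, is an example. Its normalized read counts were 5395, 20071 and 4640.5 in SUM149PT siCtrl and 10979, 4783 and 3152 in BT549 siASAP1, so that 1 library of each stood far above the others. HSPB1, the small heat shock protein HSP27, was at 2597, 449 and 2195 in SUM149PT siCtrl and 794, 4188 and 1327 in SUM149PT siASAP1. Here replicate 2 was the lowest of the first group and the highest of the second. HSPA5, the ER HSP70 known as BiP, followed the same order, with 7288, 2254 and 7128 after siCtrl and 4933, 13488 and 7773 after siASAP1.

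**Figure D1:**
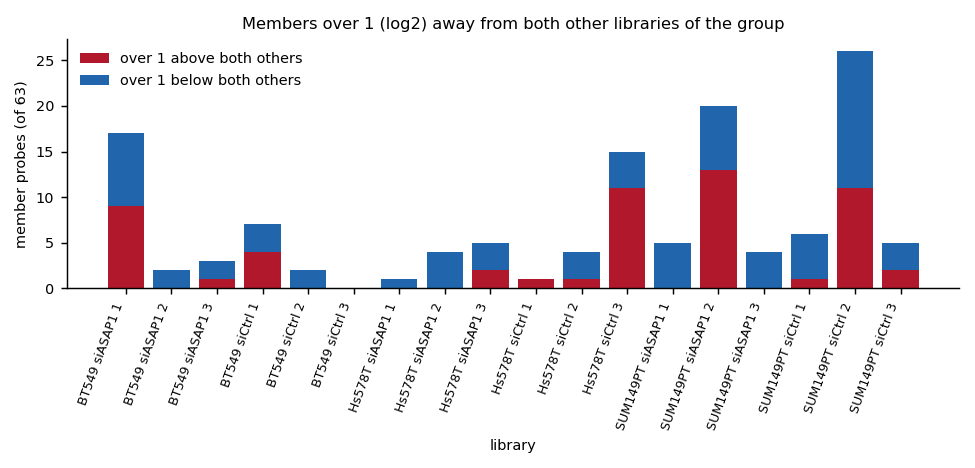
Number of chaperone probes (of 63, y axis) in each library (x axis) that lay over 1 on the log2 scale above (red) or below (blue) both other libraries of its group. The library labelled SUM149PT siCtrl replicate 2 has the most, 26, followed by SUM149PT siASAP1 replicate 2 with 20 and BT549 siASAP1 replicate 1 with 17. Shares over all probes were not counted.

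The first comparison asked which chaperones changed with ASAP1 depletion across the 3 cell lines. HSPB8, a small heat shock protein that works with BAG3 to send damaged proteins to autophagy, was higher after siASAP1 in all 3 lines, and it was the single member of the 63 with an adjusted p under 0.05. In Hs578T, where it was abundant, its normalized read counts were 769, 925 and 725 after siCtrl and 1364, 2071 and 1805 after siASAP1. In BT549 they were 0, 6.29 and 2.81 after siCtrl and 9.78, 11.3 and 17.3 after siASAP1, and in SUM149PT 0, 1.82 and 1.60 and 13.2, 6.41 and 9.20. Each of the 9 siASAP1 libraries thus lay above every siCtrl library of its line. The reads behind these values were few in BT549 (14 after siCtrl and 42 after siASAP1 over 3 libraries) and SUM149PT (3 and 22). The ratio of summed normalized reads was 2.25 in Hs578T, 3.49 in BT549 (95% interval for counting error 1.87 to 6.92) and 7.73 in SUM149PT (2.32 to 40.4). In the limma fit over the 18 libraries its log2 FC was 1.88 (SE 0.39, adjusted p = 0.0158), and without the library labelled SUM149PT siCtrl replicate 2 it was 1.92 (adjusted p = 0.0202). Over all 10475 probes tested, 0.678% were called higher and 1.06% lower at this threshold, against 1 and 0 of the 63 chaperone probes. The call was lost with a pseudocount of 0.1 (log2 FC 2.74, adjusted p = 0.077). Leaving out any 1 library gave adjusted p-values from 0.0113 to 0.0339.

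The promoter of HSPB8 is shown because it is the member whose change was called, so that it can be set beside those of members with a heat shock element further below. The sequence is from RefSeq (GRCh38.p14), runs 5′ to 3′ from 250 bases before to 50 bases after the annotated start, and would carry in capitals any match to the 2 motifs searched on both strands. These were the heat shock element (the blocks GAA, TTC and GAA with 2 bases of any kind between neighbours) and the ER stress element (CCAAT and CCACG with 9 bases of any kind between them).
HSPB8, chr12:119178681-119178980 (plus strand): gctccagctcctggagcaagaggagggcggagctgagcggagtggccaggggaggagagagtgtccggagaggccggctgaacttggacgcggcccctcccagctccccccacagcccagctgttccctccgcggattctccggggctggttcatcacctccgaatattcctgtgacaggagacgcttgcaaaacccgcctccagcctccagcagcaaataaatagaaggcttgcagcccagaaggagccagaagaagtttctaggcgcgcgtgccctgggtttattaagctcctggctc
Neither set of letters is in this window. The heat shock element was found in 172 of 35116 promoter windows (0.49%) and in those of 7 of the 74 chaperone genes that had a window, DNAJA1, DNAJB6, HSP90AA1, HSP90AB1, HSPA6, HSPA8 and HSPD1. The ER stress element was found in 27 windows (0.0769%), among them those of HSPA5 and HSP90B1. A match is a description of the letters and not of binding.

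**Figure D2:**
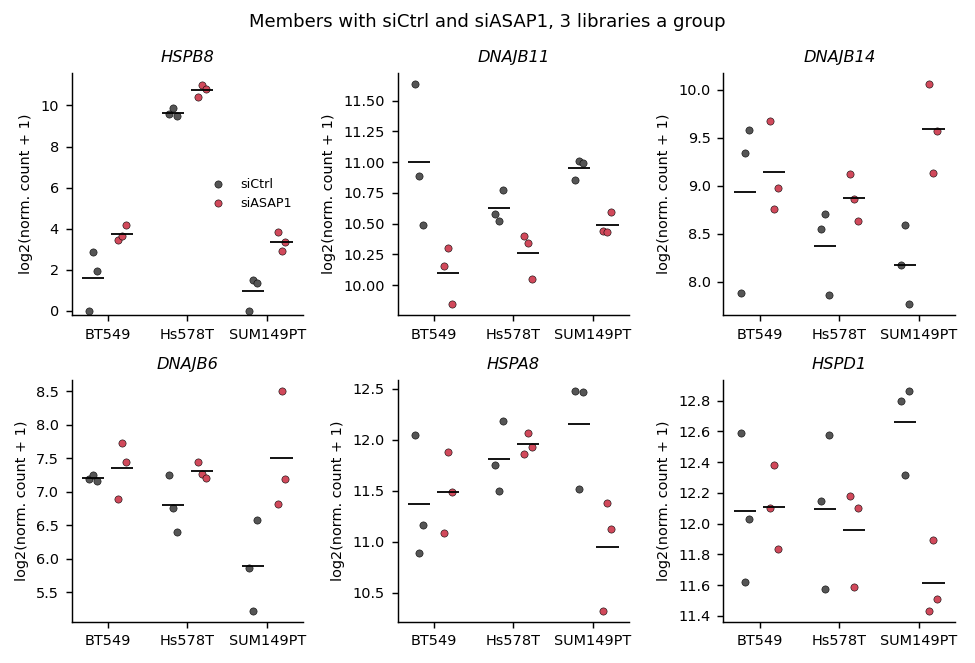
Log2(normalized count + 1) (y axis) of 6 chaperones in each library, by cell line (x axis), for siCtrl (grey) and siASAP1 (red), with a bar at the mean of 3 libraries. The y axes differ between panels and start above 0 except for HSPB8. HSPB8 is higher and DNAJB11 lower in each siASAP1 library than in every siCtrl library of the same line, while the groups of DNAJB14, DNAJB6, HSPA8 and HSPD1 separate in SUM149PT and overlap in the other lines.

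No other member passed the adjusted threshold. At an unadjusted p under 0.05 there were 9 of 63 chaperone probes (14.3%), a share near the 15.8% of all probes. The 8 besides HSPB8 were chosen after their values were seen. Closest was DNAJB11, an ER co-chaperone of BiP, whose siASAP1 libraries lay below every siCtrl library in each line. Its normalized read counts after siCtrl and after siASAP1 were 3177, 1894 and 1437 against 1141, 1258 and 919.8 in BT549. In Hs578T they were 1528, 1465 and 1753 against 1352, 1296 and 1057, and in SUM149PT 1855, 2062 and 2039.7 against 1385, 1381 and 1545. The lowest siCtrl and the highest siASAP1 library lay closest in Hs578T. The log2 FC was -0.58 (SE 0.16, adjusted p = 0.0717), and it was -0.58 without the library labelled SUM149PT siCtrl replicate 2 (adjusted p = 0.0915). HSPA6, a strictly heat-inducible HSP70, had the largest positive log2 FC after HSPB8 (1.64, SE 0.57, adjusted p = 0.148) on few reads. It was read 3, 0 and 0 times in SUM149PT siCtrl and 9, 12 and 20 times in siASAP1, a ratio of normalized reads of 14.4 with an interval for counting error from 4.60 to 72.8. The groups overlapped in BT549, where the ratio was 3.31, and in Hs578T. The second probe of HSPA6, with at most 20 reads in a library, was tested in Hs578T alone. Its log2 FC there was 1.57, with groups that overlapped. Positive as well were DNAJB14 (0.70) and DNAJB6 (0.76), which are described with SUM149PT, and DNAJC2, a J protein of the ribosome (0.62). Negative were DNAJC19, of the mitochondrial import motor (-0.56), the CCT subunit CCT8 (-0.49) and HSPB11, also known as the intraflagellar transport protein IFT25 (-0.80). Each of these 6 had the same sign in the 3 lines, with groups that overlapped in at least 2 of them, and adjusted p-values ran from 0.183 to 0.315.

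Over the 63 chaperone probes the median log2 FC across the 3 lines was 0.035, with 33 above and 30 below 0, beside a median of 0.023 over all probes. By class the medians were 0.06 for HSP70 and HSP110, 0.25 for HSP90, 0.45 for the small heat shock proteins, -0.12 for DNAJA, 0.30 for DNAJB, 0.09 for DNAJC, -0.30 for HSPD1/HSPE1 and -0.29 for CCT. Without the library labelled SUM149PT siCtrl replicate 2 the first 4 of these were -0.09, 0.13, 0.24 and 0.04, DNAJC was at 0.0066 and CCT at -0.26 with 6 of 8 negative, so that the medians of HSP70 and DNAJA turned in sign. The HSP70 median also turned without BT549 siASAP1 replicate 1 (-0.06). Of the 8 CCT subunits, 7 had a negative log2 FC (6 of 8 with libraries scaled to their totals or upper quartiles), and the range was from -0.49 (CCT8) to 0.23 (CCT3). In limma 0 of them passed the adjusted threshold and 1 had an unadjusted p under 0.05. TCP1 was at -0.20, CCT2 at -0.36, CCT5 at -0.23, CCT6A at -0.46, CCT7 at -0.39 and CCT4 at -0.02, where the signs of CCT4 and, when certain single libraries were left out, of CCT2 turned. HSPD1 and HSPE1, which form the mitochondrial folding chamber and its lid and are transcribed from a shared promoter region, were at -0.39 and -0.21. Among the constitutive and ER members, HSPA8 (HSC70) was at -0.32, HSPA5 at 0.30, HSPA9 (mortalin, of mitochondria) at 0.17 and HSPA1B at -0.20. HSPH1 (HSP110) was at -0.12 and HSP90AB1 at -0.06, both positive with libraries scaled to their totals, HSP90AA1 was at 0.25 and HSP90B1 (GRP94, the ER HSP90) at 0.44. HSPB1 was at 0.45 and DNAJA1, a cytosolic partner of HSC70, at -0.27. All of these had adjusted p-values of at least 0.256, and their standard errors lay between 0.15 (TCP1) and 0.58 (CCT2).

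**Figure D3:**
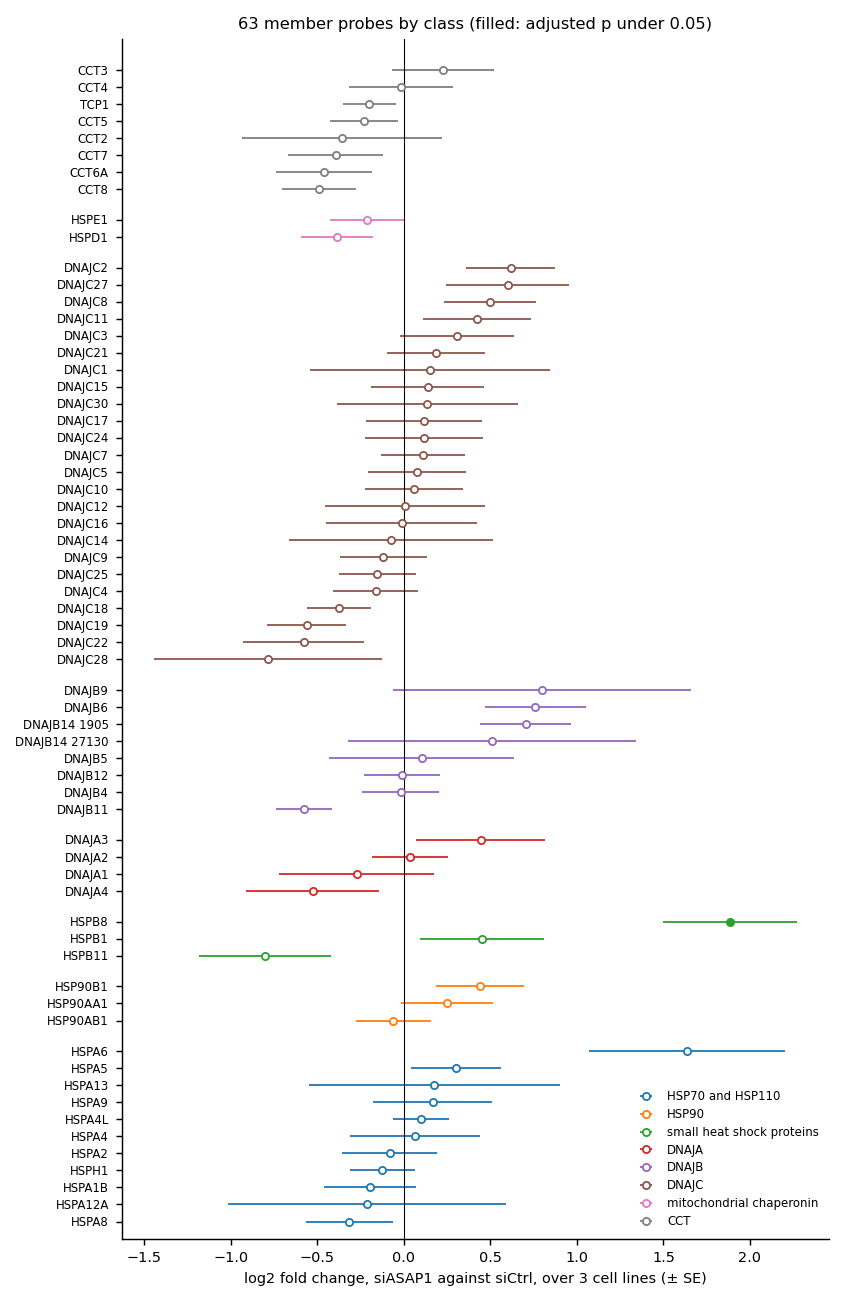
Log2 FC of siASAP1 against siCtrl over the 3 cell lines (x axis, ± SE, limma fit of 18 libraries) for the 63 chaperone probes tested, grouped and colored by class. The point of HSPB8 is filled (adjusted p under 0.05) at 1.88, and 7 of the 8 CCT subunits lie below 0 (6 of 8 with the other scalings).

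The members were also grouped by where they work. Of the 13 tested probes of ER chaperones (12 genes), 9 had a positive log2 FC over the 3 lines (median 0.18), of the 10 mitochondrial ones 5 did (median -0.01), and of the 11 known HSF1 targets 4 did (median -0.12), against 51.7% of all probes. With libraries scaled to their totals the medians of the last 2 groups were 0.11 and 0.0064, and relative to the median of all probes the counts were the same with each of the 3 scalings (9 of 13, 5 of 10 and 4 of 11 above it). In limma 0 of the 13, 0 of the 10 and 0 of the 11 passed the adjusted threshold, and 2, 1 and 1 had an unadjusted p under 0.05, beside 15.8% of all probes. Among 34 tested co-chaperones that are not members (HOP, BAG and immunophilin proteins, prefoldin subunits and others), 1 was called. BAG1, a nucleotide exchange factor of HSP70 that links it to the proteasome, was higher after siASAP1 (log2 FC 1.39, SE 0.30, adjusted p = 0.0196). Of 16 tested probes of unfolded protein response genes that are not members, 0 were called, 4 had an unadjusted p under 0.05, all positive, beside 15.8% of all probes, and 11 had a positive log2 FC (median 0.08).

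Within each cell line the comparison rested on 3 against 3 libraries. The study's DEG limits (absolute log2 FC over 1 with p under 0.05 before adjustment) were used. In limma 0 of 58 chaperone probes met them in BT549 (6.97% of all probes), 1 of 60 in Hs578T (2.78%) and 4 of 59 in SUM149PT (9.56%). After adjustment 0 members passed in each of the 3 lines (0% of all probes). At an unadjusted p under 0.05 alone there were 4 in BT549 (7.8% of all probes), 2 in Hs578T (5.28%) and 4 in SUM149PT (10.2%). Treated and control groups were fully separate for 9 members in BT549 (13.9% of all probes), 7 in Hs578T (12.1%) and 10 in SUM149PT (17.3%). The share of chaperones that met the DEG limits was thus below that of all probes in each line, and the share with separate groups was near it.

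In Hs578T the member that met the limits was HSPB8 (log2 FC 1.10, SE 0.26, unadjusted p = 0.00199 and adjusted p = 0.711 in limma). HSP90B1 was the second with an unadjusted p under 0.05. Its normalized read counts were 1040.5, 1052 and 1096 after siCtrl and 1503, 1392 and 1779.7 after siASAP1, and the groups did not overlap (log2 FC 0.54). Over all chaperone probes of this line, 39 of 60 had a positive log2 FC (median 0.18, against 0.010 over all probes). Leaving out Hs578T siCtrl replicate 3, in which 15 members stood apart, brought DNAJC2 and DNAJC11 within the limits beside HSPB8, and without Hs578T siASAP1 replicate 2 the single member within them was DNAJC1 and not HSPB8 (these genes were chosen after their values were seen). Shares of all probes were not counted for these fits.

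In BT549 the members with an unadjusted p under 0.05, of which the latter 3 were chosen after their values were seen, were HSP90AA1, DNAJC21, DNAJB11 and DNAJC19, all of them short of the fold limit. HSP90AA1, the inducible cytosolic HSP90, was at 9739, 7339 and 10101 normalized reads after siCtrl and at 10816, 19314 and 16325 after siASAP1 (log2 FC 0.75, SE 0.32). The 3 siASAP1 libraries were the highest, with replicate 1 the nearest to siCtrl. DNAJC19 was at 1469.9, 1095 and 1219.9 against 1063, 574 and 511 (log2 FC -0.88). The result of this line depended on BT549 siASAP1 replicate 1. Without it, 10 of 58 members met the limits, but so did 22.5% of all probes. These, chosen after their values were seen, were HSPA9, HSPB1, DNAJC2, DNAJC8, DNAJC10, DNAJC11 and DNAJC21, which were higher after siASAP1, and CCT6A, DNAJB9 and DNAJC19, which were lower. HSPA9, for example, was at 43.7, 52.2 and 33.7 after siCtrl and 65.8, 88.7 and 88.5 after siASAP1, with the groups separate and replicate 1 the nearest to siCtrl.

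In SUM149PT 2 members within the limits were higher and 2 lower after siASAP1. HSPA8, the constitutive cytosolic HSP70, was at 5709, 2924 and 5656 normalized reads after siCtrl and 1279, 2669 and 2238 after siASAP1 (log2 FC -1.21, SE 0.45, unadjusted p = 0.0268 and adjusted p = 0.439 in limma). HSPD1 was at 7135, 5102 and 7449 against 2765, 3804 and 2921 (log2 FC -1.05, SE 0.35). In both genes every siASAP1 library was lower than the siCtrl libraries, though for both genes the library labelled siCtrl replicate 2 was the siCtrl library nearest to them. DNAJB14, a J protein of the ER membrane, was at 287, 384 and 217 after siCtrl and 1064, 559 and 759.6 after siASAP1 (log2 FC 1.41, SE 0.43). DNAJB6, which keeps aggregation-prone proteins soluble, was at 57.2, 36.4 and 94.3 against 112, 363 and 146 (log2 FC 1.62, SE 0.63). Both were higher in all siASAP1 libraries.

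In BT549 and Hs578T none of these 4 genes met the limits. HSPA8 had a log2 FC of 0.12 and 0.14 there, HSPD1 of 0.02 and -0.14, DNAJB14 of 0.20 and 0.50, and DNAJB6 of 0.15 and 0.50, and their groups overlapped. The second probe of DNAJB14, with at most 41 reads in a library, had a log2 FC of 1.82 in SUM149PT, 1.25 in Hs578T and -1.55 in BT549, with overlapping groups in each. The test of a difference between the 3 lines found 0 of 63 members at an adjusted p under 0.05 (0.00955% of all probes) and 1 at an unadjusted p under 0.05 (6.22% of all probes), HSPA8 (unadjusted p = 0.0312, adjusted p = 0.743). A change of any of the 4 genes in SUM149PT beyond that in the other lines was thus not shown.

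Without the library labelled SUM149PT siCtrl replicate 2, HSPA8 (-1.53), HSPD1 (-1.22) and DNAJB14 (1.61) were within the limits and DNAJB6 (1.29) was not. HSPA4, an HSP110 family member, and CCT7 and DNAJC22 were then among the lower members and DNAJB9, DNAJC16 and DNAJC24 among the higher ones, 9 of 61 in all against 23.4% of all probes (these genes, too, were chosen after their values were seen). DNAJB9, an ER co-chaperone raised in the unfolded protein response, was read 0, 79 and 0 times after siCtrl and 41, 8 and 44 times after siASAP1, so that the library labelled siCtrl replicate 2 alone held reads of it among the controls. Its log2 FC with all libraries was 2.99 (SE 1.80). The count of 4 fell to 1 without SUM149PT siASAP1 replicate 1, siASAP1 replicate 3 or siCtrl replicate 3, and to 2 without siCtrl replicate 1. Without siASAP1 replicate 2 it was again 4, with DNAJC22 in the place of DNAJB6. Shares of all probes were not counted for these fits, so the changes in count are not shown to be particular to chaperones. Without both libraries numbered 2, which leaves 2 a group, 23 of 59 members met the limits, but so did 40.4% of all probes. HSPA8 (-1.75), HSPD1 (-1.36) and DNAJB14 (1.84) were among them and DNAJB6 (0.79) was not. Over the 3 lines HSPB8 was at 1.95 without these 2 libraries (adjusted p = 0.0308 in limma).

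The promoters of the 3 SUM149PT members with a heat shock element are shown for comparison with that of HSPB8, with matches to the heat shock element on either strand in capitals.
HSPA8, chr11:123062087-123062386 (minus strand): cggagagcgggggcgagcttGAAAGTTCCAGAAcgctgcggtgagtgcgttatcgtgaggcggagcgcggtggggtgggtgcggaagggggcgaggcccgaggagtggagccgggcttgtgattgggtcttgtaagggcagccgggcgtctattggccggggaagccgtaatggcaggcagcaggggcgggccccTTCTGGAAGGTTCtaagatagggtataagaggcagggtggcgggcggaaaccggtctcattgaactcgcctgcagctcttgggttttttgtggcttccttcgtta
HSPD1, chr2:197499791-197500090 (minus strand): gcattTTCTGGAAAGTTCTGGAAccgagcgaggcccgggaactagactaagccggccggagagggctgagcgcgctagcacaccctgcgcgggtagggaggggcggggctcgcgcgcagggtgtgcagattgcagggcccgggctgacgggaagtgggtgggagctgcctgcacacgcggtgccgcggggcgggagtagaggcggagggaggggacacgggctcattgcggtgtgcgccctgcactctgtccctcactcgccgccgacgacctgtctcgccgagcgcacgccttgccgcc
DNAJB6, chr7:157336754-157337053 (plus strand): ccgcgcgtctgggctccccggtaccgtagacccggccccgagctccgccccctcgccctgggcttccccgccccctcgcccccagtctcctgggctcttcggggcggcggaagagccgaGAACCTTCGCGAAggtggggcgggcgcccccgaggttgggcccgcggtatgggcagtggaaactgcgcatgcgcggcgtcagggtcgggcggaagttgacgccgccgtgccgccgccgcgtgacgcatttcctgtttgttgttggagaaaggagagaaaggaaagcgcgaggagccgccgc
HSPA8 held 1 match that begins 230 bases and 1 that begins 55 bases before the start. HSPD1 held 2 that overlap, from 245 and 240 bases before its start, and a second annotated start of HSPD1 had a window without a match. DNAJB6 held 1 match at 131 bases. Of these members, HSPA8 and HSPD1 were lower and DNAJB6 was higher after siASAP1 in SUM149PT, and the window of HSPB8 held no match. By this strict match 6 of the 13 listed HSF1 targets held the element, so a window without a match is not shown to lack a site. The part of the element in these changes was not tested.

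By class, the 59 chaperone probes of SUM149PT had a median log2 FC of -0.25 with 37 negative, beside a median of 0.087 over all 10078 probes. Scaling the libraries to their totals moved the median of all probes to 0.29 and gave 31 negative members, and 42 of the 59 lay below the median of all probes with this and the other scalings. CCT subunits were negative for 7 of 8 (median -0.54, and 8 of 8 lay below the median of all probes), mitochondrial members for 9 of 10 (median -0.41) and HSF1 targets for 8 of 10 (median -0.48, and 7 of 10 in both lists with library totals), and of these HSPD1 and HSPA8 met the limits. Of the 7 DNAJB probes (6 genes) 5 were positive, among them both probes of DNAJB14. Their median of 1.41 was the value of the DNAJB14 probe with more reads. CCT5 was at 23110.5, 13283 and 29852 normalized reads after siCtrl and 12623, 14644 and 14449 after siASAP1, where the library labelled siCtrl replicate 2 lay among the siASAP1 libraries, and its log2 FC was -0.59 with it and -0.92 without it. Without that library the CCT median was -0.69 with 6 of 8 negative. In BT549 the CCT median was -0.26 with 6 of 8 negative, and in Hs578T it was -0.08 with 5 of 8 negative, where scaling to library totals turned it to 0.03. HSF1 targets were positive for 8 of 11 in BT549 (median 0.12) and 9 of 12 in Hs578T (median 0.20). Mitochondrial members were positive for 5 of 9 (median 0.02) and 6 of 9 (median 0.13). Of all probes 49.9% were positive in BT549 and 50.8% in Hs578T. The 3 HSP90 genes were positive in both of these lines, and their median in SUM149PT was -0.25 with 2 of 3 negative (-0.80 with 3 of 3 negative without the library labelled siCtrl replicate 2). Their BT549 median was 0.40, and 0.84 without BT549 siASAP1 replicate 1. Without both SUM149PT libraries numbered 2, the median of the 59 members was -0.46 with 37 negative, beside 0.11 over all probes. In SUM149PT the summed levels of basal markers (891 to 2092 after siCtrl and 2527 to 5704 after siASAP1, 4 probes) and of mesenchymal markers (5712 to 7078 and 9893 to 11847, 9 probes) were also higher in every siASAP1 library, while those of epithelial markers overlapped. The markers of a list did not move together. By group means KRT17 rose from 1365 to 3818 while TP63 fell from 167 to 77.2. Among the mesenchymal markers FN1 rose (for example from 854 to 4387) while VIM fell from 2622 to 929. The part of these markers in the class shifts was not tested. These counts are given beside those of all probes and were not tested, and the genes of a class share the libraries and their spread.

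**Figure D4:**
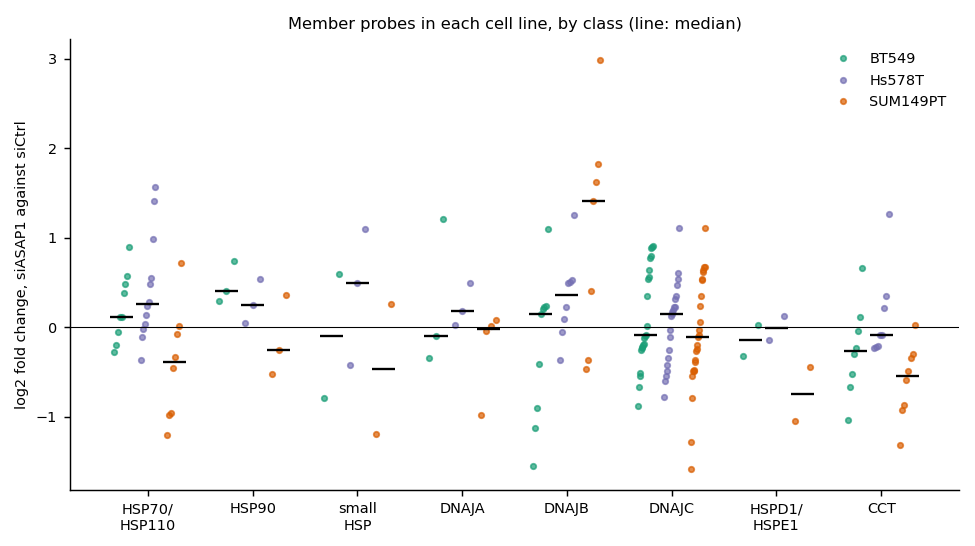
Log2 FC of siASAP1 against siCtrl (y axis) of each tested chaperone probe in BT549, Hs578T and SUM149PT (colors), by class (x axis), with a bar at the median. The SUM149PT medians of CCT (-0.54), HSPD1/HSPE1 (-0.74) and HSP70/HSP110 (-0.39) lie below 0 and that of DNAJB (1.41, 7 probes of 6 genes) above it, with each of the 3 scalings tried.

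The genes around the members were also read in each line. Of 34 co-chaperones, in limma 0 met the limits in BT549 (0 had an unadjusted p under 0.05), 0 in Hs578T (2 had) and 3 in SUM149PT, beside 6.97%, 2.78% and 9.56% of all probes. The 3 in SUM149PT are thus a share near that of all probes. BAG1 was higher there (log2 FC 2.27), and the immunophilin FKBP4, a partner of HSP90, and PDCL3, a partner of CCT, were lower (-1.89 and -1.46). Without the library labelled SUM149PT siCtrl replicate 2 the values were 2.70, -2.72 and -1.98, and 6 of 34 co-chaperones met the limits, beside 23.4% of all probes. In BT549 without siASAP1 replicate 1 it was 4 of 35, beside 22.5%. Of the unfolded protein response genes, MANF and CRELD2, both secreted ER stress proteins, were lower in BT549 (-1.58 and -1.08) and DDIT3, which encodes the factor CHOP, was higher in SUM149PT (2.14). Without BT549 siASAP1 replicate 1, MANF was at -1.85 and CRELD2 at -0.83, and CRELD2 was then outside the limits. With all libraries none of these had an adjusted p under 0.05 within a line (limma, adjusted p from 0.275 to 0.611).

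The largest log2 FC values among the chaperones were those between cell lines, and the widest of them belong to genes that passed the filter through 1 line. In each pair of lines the siCtrl groups were compared in a fit of the 6 group means, and calls needed an adjusted p under 0.05 together with a log2 FC beyond 1 in either direction. Between SUM149PT and BT549, 5 members were higher in SUM149PT (10.7% of all probes were) and 3 lower (9.91%). Between SUM149PT and Hs578T, 9 were higher in SUM149PT (11.4%) and 6 lower (11.9%), and between BT549 and Hs578T, 4 were higher in BT549 (7.64%) and 4 lower (8.92%). These are 20 probes in all, and the 3 comparisons share their siCtrl groups. The shares of the 63 members, from 4.76% to 14.3%, lay around those of all probes, from 7.64% to 11.9%. Line differences are thus not shown to be particular to chaperones. HSPB8, DNAJA4, DNAJC12 and HSPA6 reached a mean of 10 normalized reads in 1 line alone, where they are high, so their presence among the tested members already called for a difference. The siASAP1 libraries took part in the filter and the spread of this fit and are not independent of the calls. With the 9 siCtrl libraries alone the calls were 7, 11 and 5, and the share of all probes was not counted there. Leaving out HSPB8, DNAJA4, DNAJC12 and HSPA6, the siASAP1 libraries differed in the same direction for 6 of 6, 11 of 11 and 6 of 6 called members. The groups did not overlap for 4, 8 and 6 of them. The 11 include DNAJB5, with a mean of 5.26 in SUM149PT, and DNAJC14, with a mean of 8.31 in Hs578T, both under 10. The same shares over all called probes were not counted, so these counts describe the members and do not test the calls.

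Among the small heat shock proteins, HSPB8 marked Hs578T. Its siCtrl level there, 769, 925 and 725 normalized reads, was 221 times that of BT549 (95% interval for counting error 132 to 405) and 656 times that of SUM149PT, where 3 reads in all give an interval from 224 to 3181. After siASAP1 the ratios were 143 and 191, so HSPB8 in ASAP1-depleted BT549 and SUM149PT cells remained far below its level in Hs578T. HSPB1 was also highest in Hs578T, with 7035, 5629 and 11570.2 normalized reads, and lower in SUM149PT with 2597, 449 and 2195 (log2 FC -2.49, adjusted p = 0.0102, and -1.69 without the library labelled SUM149PT siCtrl replicate 2). BT549 lay between them with 6507, 2432 and 3977 and did not differ from SUM149PT at this threshold (adjusted p = 0.118). It was not called against Hs578T either, and the siCtrl groups of these 2 lines overlapped.

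HSPA2, an HSP70 known for its role in sperm development, was at 332, 163 and 216 normalized reads in SUM149PT siCtrl, 42.4, 34.0 and 23.1 in BT549 and 79.3, 40.8 and 39.4 in Hs578T, and at 146, 242 and 129 in SUM149PT siASAP1. Every SUM149PT library was above every library of the other lines (log2 FC 2.78 against BT549 and 2.15 against Hs578T). HSPA4L, of the HSP110 family, was at 842, 696 and 756 in SUM149PT siCtrl, 444, 311 and 415 in BT549 and 316, 242 and 404 in Hs578T. The difference to Hs578T (1.28) was called and that to BT549 (0.98, adjusted p = 0.0141) fell just short of the fold limit. HSPA1B, whose reads may include those of HSPA1A, was at 282, 214 and 171 normalized reads in SUM149PT siCtrl against 85.2, 56.3 and 69.0 in Hs578T (1.64). In the siASAP1 libraries that difference was 0.38 and the groups overlapped, with 126, 167 and 63.1 in SUM149PT.

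HSPH1 separated the 3 lines. Its siCtrl libraries held 33525, 21466 and 30716 normalized reads in BT549, 9581, 12266 and 9578 in SUM149PT and 7427, 4046 and 4730.0 in Hs578T, with no overlap between any 2 lines. BT549 was above Hs578T by 2.43 (log2, SE 0.34, adjusted p = 5.39e-05), and SUM149PT lay -1.43 from BT549 (adjusted p = 0.00479) and 0.99 from Hs578T (adjusted p = 0.0415). The last was 0.88 without the library labelled SUM149PT siCtrl replicate 2 (adjusted p = 0.087). The siASAP1 libraries had that order too, with 35529.5, 20569 and 17021, 12599, 7106 and 10656 and 5975, 4393 and 5237. HSPA6 was read 13, 22 and 51 times in Hs578T siCtrl and 3, 0 and 0 times in SUM149PT siCtrl (ratio of normalized reads 20.3, interval 6.71 to 100.2). Among the HSP90 genes, HSP90AB1, the constitutive cytosolic form, was higher in SUM149PT than in either other line. It was at 1666, 895 and 1736 there, 814, 415 and 511 in BT549 and 479, 393 and 833 in Hs578T, with a log2 FC of 1.35 against Hs578T (adjusted p = 0.0129), and it differed from BT549 as well (adjusted p = 0.0174). Without the library labelled SUM149PT siCtrl replicate 2, the lowest of its group, the log2 FC was 1.65 against Hs578T and 1.61 against BT549. Each call was lost in 4 of 18 fits with 1 library left out (limma, adjusted p up to 0.0746 against Hs578T and 0.0894 against BT549). In the siASAP1 libraries the difference was 0.78 to Hs578T, with separate groups, and 0.49 to BT549, with groups that overlapped.

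Among the DNAJ proteins, DNAJA4, a cytosolic partner of HSP70, was read in SUM149PT and hardly elsewhere. Its normalized read counts were 113, 107 and 112 in SUM149PT siCtrl and 95.3, 126 and 103 in siASAP1, against reads of 1, 0 and 0 in BT549 siCtrl, 1, 0 and 5 in Hs578T siCtrl and 0 in each siASAP1 library of both lines. The ratio of SUM149PT to BT549 siCtrl was 419 on 1 read in BT549 (interval 74.6 to 16617), and that to Hs578T was 62.7 (28.4 to 172). Its difference between siASAP1 and siCtrl in SUM149PT was -0.04 (log2). DNAJC12, a J protein that assists aromatic amino acid hydroxylases, was at 51.5, 53.8 and 17.6 in SUM149PT siCtrl and 8.44, 3.26 and 3.94 in Hs578T siCtrl and had 0 reads in BT549 siCtrl. SUM149PT was at least 55.7-fold higher than BT549 when 3 reads over the group are taken as the floor (the lower 95% limit for counting error of both groups was 44.5), and 8.33-fold higher than Hs578T (interval 5.02 to 14.6), a call that was lost without the library labelled SUM149PT siCtrl replicate 2 (adjusted p = 0.0623).

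DNAJC22 was highest in Hs578T. It was at 333, 302 and 559.6 normalized reads in Hs578T siCtrl, 187, 62.9 and 117 in SUM149PT and 26.2, 17.6 and 25.3 in BT549, with a log2 FC of -4.02 between BT549 and Hs578T (SE 0.55, adjusted p = 4.18e-05), and both other pairs were called as well (the one of SUM149PT and Hs578T only with the library labelled SUM149PT siCtrl replicate 2). After siASAP1, SUM149PT was at 27.8, 76.9 and 22.3 and BT549 at 15.1, 27.4 and 9.13, which overlapped. DNAJB4, a cytosolic DNAJB protein, fell in the order BT549, Hs578T and SUM149PT, with 1577, 1963 and 1845, 695, 855 and 875 and 272, 632 and 286. The 3 pairs were called with log2 FC -2.28, -1.13 and 1.15 (the last as BT549 minus Hs578T). DNAJC18 was also lower in SUM149PT than in BT549 (-1.38).

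Of the other members, DNAJB5 was lower in SUM149PT than in Hs578T, with 0, 4.56 and 12.8 against 38.8, 26.9 and 79.8 normalized reads (-3.40). DNAJC14 was higher there, with 37.2, 25.5 and 33.6 against 0, 0.816 and 20.7 (3.27), and after siASAP1 its groups overlapped (6.61, 26.9 and 10.5 against 6.80, 9.83 and 11.7). DNAJC2 and DNAJC7 were called higher in SUM149PT as well (log2 FC 1.40 and 1.25), with siCtrl groups that overlapped. BT549 exceeded Hs578T in DNAJC5, the cysteine string protein of vesicles (1.57), and in DNAJC25 (1.16), and it was lower in DNAJA3, a mitochondrial J protein (-2.01), and in DNAJC12 (-2.55, where BT549 siCtrl had no read and the value depends on the pseudocount). TCP1, a CCT subunit, was higher in BT549 than in Hs578T with no overlap, 23944, 15913 and 21262 against 13701, 11274 and 9456 (0.82, adjusted p = 0.0457), below the fold limit. No other CCT subunit had an adjusted p under 0.05 in any of the 3 pairs with all libraries, and of the reference members HSPD1, HSPE1, HSPA5, HSPA8, HSPA9, HSP90AA1 and HSP90B1 had none (the smallest was 0.0871, for HSP90B1).

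These counts also depended on single libraries. Shares of all probes were not counted for the fits below, so a rise or fall is not shown to be particular to chaperones. Without the library labelled SUM149PT siCtrl replicate 2, 14 members instead of 8 differed between SUM149PT and BT549, the 8 among them, and 18 instead of 15 between SUM149PT and Hs578T, 13 of them shared. The additional members against BT549 were CCT7, DNAJA3, DNAJB9, DNAJC15, HSPA4L and HSPA8. Against Hs578T, 8 members were called without SUM149PT siCtrl replicate 1 and 10 without Hs578T siCtrl replicate 1 or 2. The 8 called between BT549 and Hs578T became 3 without BT549 siCtrl replicate 2 or Hs578T siCtrl replicate 1 or 2, and 4 or 5 without BT549 siCtrl replicate 1 or 3, BT549 siASAP1 replicate 2 or 3, or any 1 of the Hs578T siASAP1 libraries. HSPB8, HSPH1 and DNAJC22 were called in that pair whichever library was left out, though HSPB8 passed the filter through its level in Hs578T alone.

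**Figure D5:**
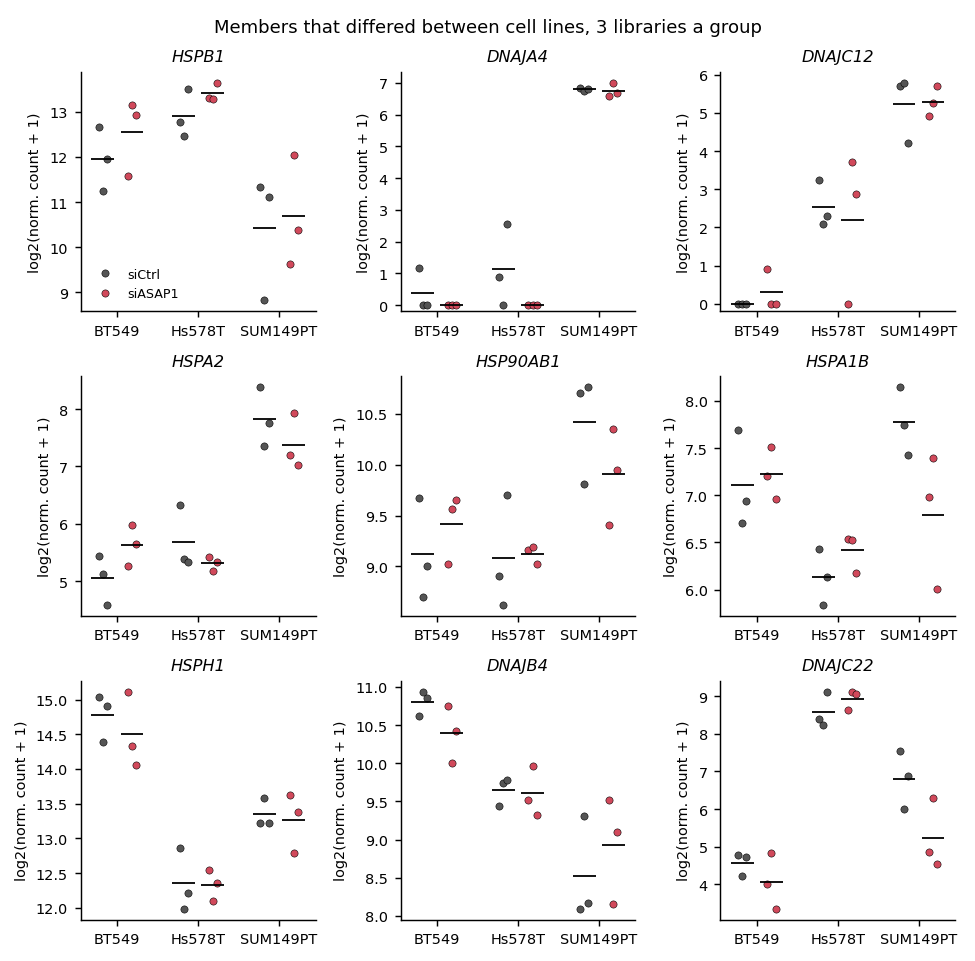
Log2(normalized count + 1) (y axis, range differs between panels) of 9 chaperones in the 18 libraries, by cell line (x axis), for siCtrl (grey) and siASAP1 (red), with a bar at the mean of 3 libraries. DNAJA4, DNAJC12 and HSPA2 are highest in SUM149PT, HSPH1 and DNAJB4 in BT549, and DNAJC22 and HSPB1 in Hs578T, by the mean of the siCtrl and of the siASAP1 libraries.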

How the data were processed

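TempO-Seq reads of a targeted human transcriptome panel were aligned to the probe sequences and counted per probe by the authors (bcl2fastq, Bowtie and DESeq2 are named in the submitters' processing notes, without versions, and the genome build of the probes was not given in the sources used here). The deposited values are log2 values, which the authors made as log2(reads divided by the DESeq2 size factor of the library + 1) for 21111 probes in 18 libraries. The low values of each library were whole multiples of 1 step, so reads were recovered by division (100% whole within 0.02 read), and depths of 4.63 to 12.5 M reads per library are sums of these. Normalized reads are 2 to the power of the deposited value, less 1. Replicate libraries differed by more than counting error (chi-square values of 10.1 to 247 per degree of freedom).

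Chaperones were picked by symbol, and the members and gene lists were chosen with earlier results of these data known. Probes with a mean of at least 10 normalized reads over the libraries of a fit were tested on the deposited log2 values with limma 3.58.1 in R 4.3.3 (empirical Bayes with an intensity trend, Benjamini-Hochberg adjustment over all probes tested). The fits were siASAP1 against siCtrl with cell line as a covariate (18 libraries), within each line (6 libraries), the interaction of line and treatment (F test), and siCtrl between lines as 6 group means. All p-values are two-sided. Named genes were 22 reference chaperones, members called over the 3 lines, up to 6 per line within the DEG limits and up to 6 in each direction per pair of lines with separate groups. Ratios of summed normalized reads carry exact 95% intervals from the binomial split of the reads, for counting error only. Alternatives changed the scaling (library totals, upper quartile), pseudocount (0.1), filter (none, a mean of 50), spread (no trend, voom), samples in the fit, replicate block and threshold, or left out libraries. Leaving out 2 libraries at once was chosen after seeing the data. The fits were run on simulated reads with known changes and no libraries that stand apart. That setting differs from these data, so it does not show how the fits behave with such libraries. Promoter windows are from RefSeq (GRCh38.p14), and 74 of 85 symbols matched.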

Additional observations from a re-analysis of the deposited data

Results flagged for a closer look

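DNAJC9, a J protein that also acts as a histone chaperone, moved in opposite directions in 2 lines. Its siASAP1 libraries were all above the siCtrl libraries in Hs578T (89.5, 85.0 and 115 against 71.7, 57.1 and 59.1 normalized reads, a difference of 0.61 on the log2 scale) and all below them in SUM149PT (62.2, 38.5 and 35.5 against 67.2, 68.3 and 97.5, a difference of -0.79). In BT549 the difference was -0.18. The test of a difference between the 3 lines gave an unadjusted p of 0.0597 and an adjusted p of 0.831 in limma, so the difference was not shown. DNAJC9 was chosen after its values were seen.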

How the results depend on the processing

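HSPB8 was higher over the 3 lines in every fit tried, with a log2 FC from 1.64 to 2.05 and an adjusted p from 0.0113 to 0.0339 when any 1 library was left out. The count of members called higher over the 3 lines was 0 with a pseudocount of 0.1 and 0 with the replicate block, against 1. Correlations of same-numbered libraries ran from -0.66 to 0.42, so the numbers are not shown to pair the samples in all 3 lines. Their mean was 0.31 in Hs578T, -0.15 in BT549 and -0.44 in SUM149PT. Libraries whose labels are in question enter the last 2 means, and pairing was not tested further. The block also gave 0 members in SUM149PT against 4, and 4 between BT549 and Hs578T against 8. The 2 libraries that stand apart are the one labelled SUM149PT siCtrl replicate 2 and BT549 siASAP1 replicate 1. Within BT549 the count was 1 without the intensity trend, 1 as 6 group means, 10 without both libraries that stand apart, and 0 to 10 with 1 library left out (10 without siASAP1 replicate 1). Within Hs578T it was 2 with no filter, 0 as 6 group means, 0 by adjusted p alone, and 1 to 3 with 1 library left out (3 without siCtrl replicate 3). Within SUM149PT it was 2 with library totals, 8 as 6 group means, 9 without both libraries that stand apart, 23 without both SUM149PT libraries numbered 2, 0 by adjusted p alone, and 1 to 9 with 1 library left out (9 without the library labelled siCtrl replicate 2). Between siCtrl lines, SUM149PT and BT549 differed in 15 members without both libraries that stand apart and in 7 to 14 with 1 left out, SUM149PT and Hs578T in 8 to 18, and BT549 and Hs578T in 4 with no filter, 5 without the trend, 5 with the 9 siCtrl libraries alone and 3 to 8 with 1 left out. Signs over the 3 lines turned for genes near 0. HSPH1 became 0.0064 and HSP90AB1 0.069 with library totals (HSP90AB1 from -0.15 to 0.042 with 1 library left out), and CCT4 became 0.11 with library totals, 0.010 with upper quartiles, 0.025 with voom and 0.067 without both libraries (-0.21 to 0.16 with 1 left out). With 1 library left out DNAJA1 ran from -0.47 to 0.0030 and CCT2 from -0.68 to 0.058. Library totals moved the median of all probes over the 3 lines from 0.023 to 0.14 and in SUM149PT from 0.087 to 0.29. Most of the member counts above stand without the share of all probes in the same fit, so they do not show a change particular to chaperones. The cause of these changes was not tested. Depth limits HSPB8 and HSPA6 outside Hs578T, DNAJA4 and DNAJC12 in BT549, and the heat-inducible HSPA1A and DNAJB1. In the main fits HSPA1A had too few reads to be tested. DNAJB1 was tested in BT549 alone, with a log2 FC of 1.10 and groups that overlapped.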
